A study of Homo sapiens with 2 samples.

Results

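The genes KRT8, KRT18, KRT19, KRT7, KRT10, KRT80 and VIM encode intermediate filament proteins. All 16 probe sets annotated to one of these 7 genes alone were taken, of 49395 probe sets and 18132 represented genes in all. The genes were listed with earlier results of these data known, and no probe set that carries several symbols names one of them. RNA came from H1299, a human cell line established from a non-small cell lung carcinoma. The cells of one sample were transfected with a pcDNA plasmid carrying EGR1, an immediate-early zinc-finger transcription factor, and those of the other, the control, with the empty pcDNA3.1 plasmid. Both were transfected transiently with Lipofectamine 2000, without selection being mentioned, and harvested after 48 hours, according to the design text and the labels. The share of cells that took up a plasmid is not stated, so a sample may mix transfected and untransfected cells. Each group held 1 Affymetrix array. There is no replicate error and no test for any difference here, and each value describes these 2 arrays. The samples are bulk RNA, in which more cells with a transcript and more transcript per cell cannot be told apart.

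Intermediate filaments are rope-like polymers that give cells mechanical strength. Keratins form them only as pairs of an acidic type I and a basic or neutral type II protein, and a keratin without a partner is degraded. KRT8 (type II) and KRT18 (type I) are the standard pair of simple, single-layered epithelia and often persist in carcinomas, where KRT7 (type II) and KRT19 (type I) frequently accompany them. KRT10 (type I) belongs to the differentiating layers of epidermis and KRT80 is a type II keratin. VIM, or vimentin, is the type III filament protein of mesenchymal cells and is common in carcinoma lines grown in culture. KRT8 and KRT18 lie side by side on chromosome 12, and their annotated spans overlap in the RefSeq gene table. EGR1 binds GC-rich DNA, and the study asked which genes it regulates in lung cancer cells.

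The RefSeq promoter table (GRCh38.p14) held windows for KRT8, KRT10 and VIM, and none for KRT18, KRT19, KRT7 or KRT80. All windows available are shown. KRT8 was much higher in the EGR1 array while KRT10 and VIM differed little, and KRT18 could not be examined. The 250 bases before the start site the table uses are printed 5′ to 3′ on the gene's strand, and capitals mark matches to any of the 4 motifs searched.
KRT8, chr12:52926470-52926719, minus strand: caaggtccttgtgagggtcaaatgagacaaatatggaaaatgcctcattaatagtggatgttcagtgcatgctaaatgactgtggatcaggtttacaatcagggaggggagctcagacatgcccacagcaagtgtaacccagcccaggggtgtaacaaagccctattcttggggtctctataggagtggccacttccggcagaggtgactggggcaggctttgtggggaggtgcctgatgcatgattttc
KRT10, chr17:40822615-40822864, minus strand: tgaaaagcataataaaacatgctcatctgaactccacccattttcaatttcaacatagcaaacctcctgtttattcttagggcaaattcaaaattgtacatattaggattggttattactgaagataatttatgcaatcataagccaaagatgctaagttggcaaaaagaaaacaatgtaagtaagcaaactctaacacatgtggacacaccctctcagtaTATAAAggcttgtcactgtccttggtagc
VIM, chr10:17227991-17228240, plus strand: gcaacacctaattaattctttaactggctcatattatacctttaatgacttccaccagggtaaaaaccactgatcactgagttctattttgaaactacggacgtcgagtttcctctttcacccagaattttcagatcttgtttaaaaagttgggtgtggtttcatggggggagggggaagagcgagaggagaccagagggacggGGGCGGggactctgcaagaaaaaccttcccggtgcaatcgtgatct
The start used for KRT8 lies inside the gene's annotated span, and whether H1299 cells use it is not known. Motifs were searched on both strands over the same 250 bases of 35116 promoters. The EGR1 motif GCGNGGGCG was found in 8.41% of all promoters and in none of these windows. The GC box GGGCGG, bound by SP factors, was found in 42.6% of all promoters and once here, in VIM, with its first base at -46. The AP-1 motif TGANTCA was found in 6.57% of all promoters and in none of the windows. The TATA motif TATAAA was found in 10.7% of all promoters and once here, in KRT10, at -29. A match is a description of the letters, and a window without one says only that these letters are not in it.

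KRT8 and KRT18 were both higher in the EGR1 array, and the other 5 genes differed by less than 2-fold. Levels are log2 values made with RMA, which corrects background, normalizes between arrays and reduces the probes of each set to 1 value. The scale differs between probe sets, so levels are compared between arrays within a probe set and not between genes. A difference is the log2 level in the EGR1 array minus that in the empty-vector array. A gene is represented by its brightest probe set, the one with the highest mean level, and a floor on that mean at 5.22 (the 40th percentile of all probe sets) left 12652 genes. All 16 probe sets of the 7 genes were past the floor. At 2-fold, 2 of the 7 genes were higher, against 0.348% of the genes past the floor, and 0 were lower, against 0.0079%. Because the 7 genes were listed with earlier results of these data known, these counts describe the list and do not measure enrichment.

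KRT8 had 8 probe sets, all higher in the EGR1 array. The brightest, 11752634_x_at, read 7.97 in the control array and 9.97 with EGR1, a difference of 2.00 or 3.99-fold. Probe set 11758183_x_at read 8.09 and 9.57, and 11758188_x_at read 7.06 and 8.79. These differences of 1.48 and 1.73 were smaller than that of the brightest probe set. Probe set 11756989_x_at read 6.64 and 8.46 (difference 1.82), and 11755287_x_at read 6.83 and 8.15 (difference 1.32, the smallest of the 8). The remaining 3 lay close together, although their levels differed. Probe set 11758301_x_at read 6.34 and 8.27 (difference 1.93), 11758298_x_at 6.25 and 8.18 (difference 1.93), and 11758184_x_at, the dimmest, 5.60 and 7.58 (difference 1.98). The dimmest and the brightest probe sets thus gave nearly the same difference. The mean over the 8 probe sets was 1.77 (SD 0.25 between probe sets) and the median 1.87.

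**Figure D1:**
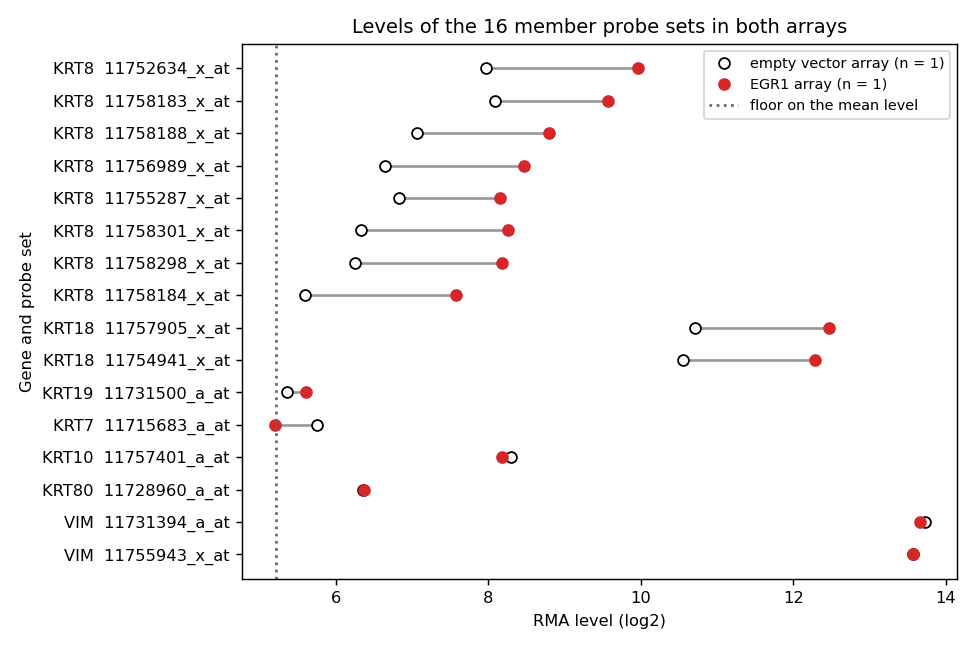
RMA level (log2, x axis) of each of the 16 probe sets (y axis, gene and identifier) in the empty-vector array (open circles) and in that with EGR1 (filled circles), with the floor of 5.22 as a dotted line. All 8 KRT8 and both KRT18 probe sets are displaced to the right in the EGR1 array, and both VIM probe sets have overlapping circles.

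KRT18, the type I partner, had 2 probe sets. Probe set 11757905_x_at read 10.70 in the control array and 12.47 with EGR1, a difference of 1.76 or 3.39-fold. Probe set 11754941_x_at read 10.55 and 12.28, a difference of 1.73 or 3.32-fold. Both lay within the range of the KRT8 probe sets, from 1.32 to 2.00. By brightest probe sets the difference of KRT8 exceeded that of KRT18 by 0.23, which is under the SD of 0.25 between the KRT8 probe sets, so the partners of the pair cannot be ordered. Across the 7113 genes that had at least 2 probe sets past the floor, probe sets of the same gene differed with a pooled SD of 0.15. This spread is that of the probes, and holds no error of culture, transfection or array.

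Ranked by difference among the 12652 genes past the floor, KRT8 was number 8 and KRT18 number 13. All 10 probe sets of the pair reached 2-fold, against 0.238% of the 44988 probe sets with 1 symbol. KRT8 and KRT18 were among 9 genes (0.127% of the 7113 with several probe sets past the floor) in which each of them was at or beyond 2-fold higher. Of 104 genes with at least 8 of them, KRT8 was the 1 gene (0.962%) for which this held. The other genes of the 9 were CDKN1C, DDIT3, HEY1, ID2, NR4A1, SERPINA1 and TRIB1, named after their values were seen.

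All 8 KRT8 and both KRT18 probe sets are of the _x_at type, a suffix for sets with probes that also match related sequences, and processed pseudogenes of both genes are numerous. Of the 7152 _x_at probe sets with 1 symbol 26 (0.364%) were at or beyond 2-fold higher, and 10 of these 26 were KRT8 and KRT18. Without _x_at and _s_at probe sets neither gene was measured. Among pseudogenes of KRT8, KRT18 and KRT19, 1 had a probe set, the _x_at probe set of KRT18P55. It read 4.98 in the control array and 6.41 with EGR1, a difference of 1.43. How much signal the probe sets of KRT8, KRT18 and KRT18P55 share was not tested.

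The other simple-epithelium keratins did not follow the pair. KRT19, the smallest type I keratin, which lacks most of the tail domain, read 5.36 in the control array and 5.61 with EGR1. The difference was 0.24 (1.18-fold higher), number 1089 from the top of the 12652 genes, and both levels were close to the floor. KRT7, a type II keratin of glandular and ductal epithelia, read 5.75 and 5.20, a difference of -0.55 (1.47-fold lower). This was the largest downward difference among the 7 genes and number 41 from the bottom of the 12652, and the EGR1 value lay just under the floor. KRT7 passed the floor only through its higher control level, so its sign and rank partly follow from the filter. KRT7 did not reach 1.5-fold lower, which 0.229% of the genes past the floor did. KRT19 and KRT7 had 1 probe set each, so no second probe set checks either value.

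KRT10, KRT80 and VIM had almost the same level in both arrays. KRT10 read 8.29 in the control array and 8.18 with EGR1, a difference of -0.11. KRT80 read 6.36 and 6.38, a difference of 0.01. Vimentin had 2 probe sets, and the brighter, 11731394_a_at, read 13.73 and 13.66 (difference -0.07). The other, 11755943_x_at, read 13.56 in both arrays (difference -0.0004). The differences of all 3 genes were smaller than the pooled SD of 0.15 between probe sets, as were those of 62.5% of the genes past the floor. With 1 array per group, a small difference does not show that a level is equal.

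**Figure D2:**
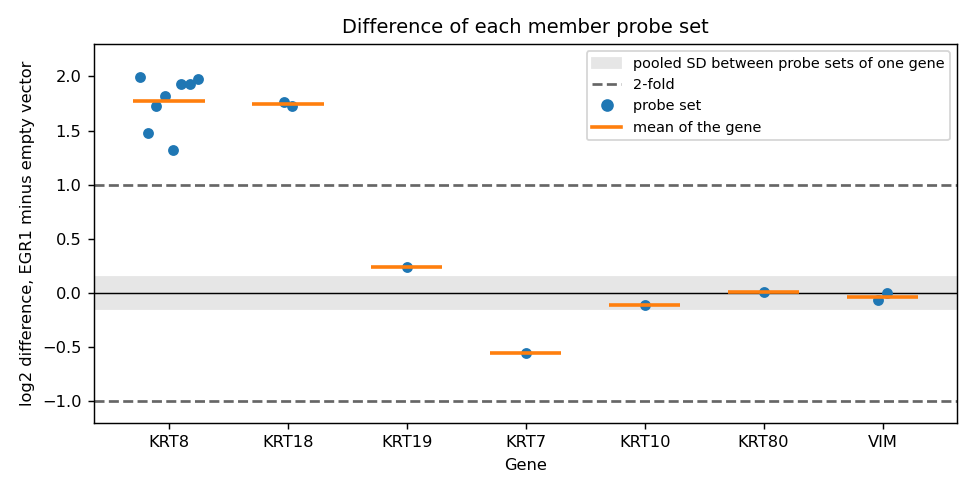
log2 difference, EGR1 minus empty vector (y axis), of each probe set (points) and the mean of each gene (bars) for the 7 genes (x axis), with the pooled SD of 0.15 shaded and 2-fold dashed. KRT8 (from 1.32 to 2.00) and KRT18 (1.73 and 1.76) lie above 2-fold, KRT7 lies at -0.55, and KRT10, KRT80 and VIM lie in the shaded band.

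The plasmid's own gene was read by 6 EGR1 probe sets, which disagreed. Probe set 11717861_a_at read 7.70 in the control array and 11.43 with EGR1, and 11751643_x_at read 7.17 and 9.92, while the other 4 differed by -0.39 to -0.20. The brightest of the 6, 11717860_a_at, was among those 4 and read 10.51 in the control array and 10.12 with EGR1. Taking the brightest probe set, as for the other genes here, would therefore give EGR1 a difference of -0.39. Which of these probe sets lie within the plasmid's insert is not known here.

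None of the other keratins measured approached the difference of KRT8 and KRT18. The listed keratins KRT6A, KRT6B, KRT16, KRT17, KRT34, KRT81, KRT82 and KRT86 had no probe set with their symbol alone and gave no value. Of 41 other keratins measured, 15 were past the floor, and 0 of those reached 1.5-fold in either direction. Of all genes past the floor, 0.941% were at 1.5-fold higher and 0.229% at 1.5-fold lower. A count of 0 in a list this short is near such small shares, here and in the lists below. The differences of the 15 ran from -0.22 to 0.35 with a median of 0.12, and the median over all 41 was 0.05. The medians of all genes were -0.02 past the floor and 0 without it. Of the 15 keratins 11 were above 0, against 44.6% of the genes past the floor. At least KRT5 and KRT79 of the 11 passed the floor only through the EGR1 array, so this count partly follows from the filter.

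Among type II keratins, the class of KRT8, 15 of 17 listed were measured and 4 were past the floor. KRT5, the type II keratin of basal epithelial cells, read 5.20 in the control array and 5.54 with EGR1 (difference 0.33). KRT79 differed by 0.23, KRT6C by 0.22 and KRT4, of mucosal stratified epithelia, by 0.08. Over all 15, 10 were above 0 and 4 below, against 47.6% and 47.9% of all genes, with a median of 0.05. Past the floor 4 of 4 were above 0 and the median was 0.22. KRT5 and KRT79 read under the floor in the control array (5.20 and 5.14). Both passed it only through their higher EGR1 level, so their sign partly follows from the filter.

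Among type I keratins, the class of KRT18, 13 of 15 listed were measured and 4 were past the floor. KRT9, of the epidermis of palms and soles, differed by 0.35, although its 2 probe sets disagreed in sign (-0.28 and 0.35). KRT14, the basal-cell partner of KRT5, read 5.40 and 5.69 (difference 0.28). KRT20, of intestinal and urothelial cells, read 5.61 and 5.39 (difference -0.22), and KRT15 read 8.34 and 8.31 (difference -0.04). Of the 13, 5 were above 0 and 6 below, with a median of 0, and the median of the 4 past the floor was 0.12. Of 17 listed hair keratins 13 were measured, 7 of them past the floor, with a median of 0.12 past the floor and 0.10 over all 13. The largest differences past the floor were those of KRT84 (-0.22), KRT85 (0.17), KRT35 (0.15) and KRT40 (0.12), and the 3 KRT85 probe sets disagreed in sign.

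Filament genes outside the keratins also stayed under 1.5-fold. Of the 9 other type III and IV genes 8 were above 0, against 47.6% of all genes, with a median of 0.14 over all 9 and 0.09 over the 7 past the floor. Synemin (SYNM), a large type IV protein that copolymerises with vimentin, read 7.56 in the control array and 7.91 with EGR1, a difference of 0.35, but its other probe set differed by 0.04. The astrocyte filament gene GFAP differed by 0.29 by its brightest probe set, while its 8 probe sets ran from -0.32 to 0.35. Nestin (NES), of progenitor cells, differed by 0.14 and alpha-internexin (INA), of neurons, by -0.15. All 5 lamin and lens filament genes were past the floor, with a median of -0.01. LMNA, which encodes lamins A and C of the nuclear lamina, read 10.56 and 10.92, and its 7 probe sets were all above 0, from 0.15 to 0.41. LMNB2 differed by -0.19, BFSP1 by 0.07 and LMNB1 by -0.03.

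**Figure D3:**
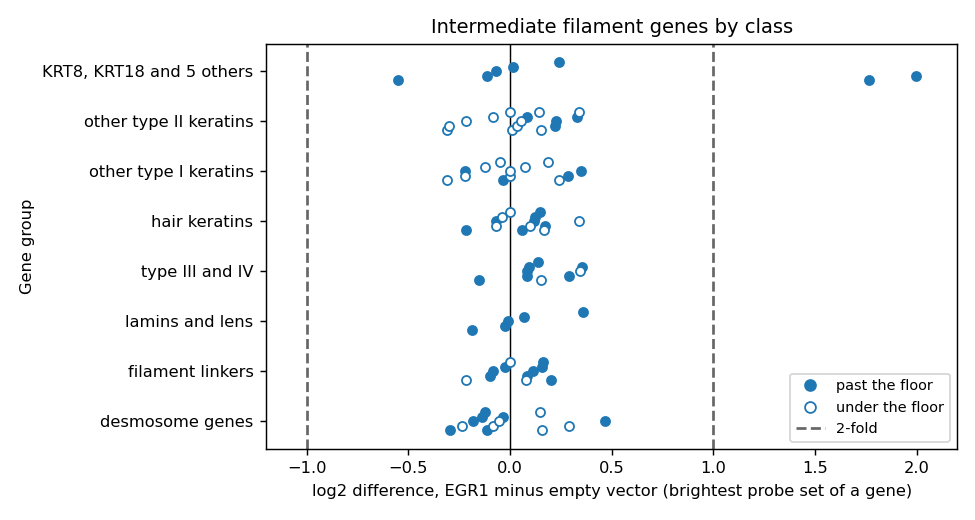
log2 difference, EGR1 minus empty vector, of the brightest probe set of each gene (x axis) by gene group (y axis), with filled circles for genes past the floor, open circles for genes under it and dashed lines at 2-fold. KRT18 (1.76) and KRT8 (2.00) are the 2 points beyond 2-fold, and all other points lie between -0.55 and 0.46.

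Genes that anchor filaments showed small differences. All 11 listed plakins and other linkers were measured and 8 were past the floor, with 0 of the 8 at 1.5-fold. The median was 0.08 over all 11 and 0.10 past the floor, and -0.02 with the floor at the 60th percentile. Periplakin (PPL) differed by 0.20, FBF1 by 0.16, plectin (PLEC), which crosslinks filaments to other cytoskeletal systems, by 0.16 and FAM83H, a keratin-binding scaffold, by 0.11. The probe sets of PPL and FBF1 disagreed in sign, and the second FAM83H probe set differed by 0.71. Of the 13 desmosome genes, whose products attach keratin filaments to junctions, 9 were below 0, against 47.9% of all genes, with a median of -0.08 over all 13 and -0.12 over the 7 past the floor. Plakoglobin (JUP) read 6.19 and 6.65 (difference 0.46), whereas DSC2 differed by -0.29 and PERP by -0.18. PKP1 differed by -0.14 by its brightest probe set, but its 3 probe sets ran from -0.14 to 0.32.

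Kinases and 14-3-3 proteins known to act on filament proteins differed by little. Of 12 measured, all past the floor, 9 were below 0, against 52.8% of the genes past the floor. Of these 12, 0 reached 1.5-fold, and the median was -0.07. The pooled SD is a spread of single probe sets and gives no scale for this median. ROCK1, a kinase that phosphorylates vimentin, differed by -0.27 and the mitotic kinase CDK1 by -0.25, although each had a probe set on the other side of 0. ROCK2 differed by -0.15 by its brightest probe set, while its 3 probe sets ran from -0.20 to 0.26, and SFN, the 14-3-3 sigma gene, differed by 0.21. Among 11 AP-1, ETS and SP factors, families with sites in the regulatory regions of KRT18, 9 (of 11 past the floor) were above 0 with a median of 0.16, against 44.6% of the genes past the floor above 0. Of the 11, 1 reached 2-fold higher, against 0.348% of the genes past the floor, and 10 did not. At 1.5-fold higher there were 2 of the 11, against 0.941% of the genes past the floor. FOS read 9.12 in the control array and 10.22 with EGR1 (2.15-fold), and its 4 probe sets ran from 0.75 to 1.10. JUNB read 7.62 and 8.53 (1.87-fold). FOSB differed by 0.24, with 0.55 by the other of its 2 probe sets, and FOSL2 by 0.26 with 5 probe sets from -0.12 to 0.28.

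The genes next to the pair did not share its difference. Of 11 genes that the RefSeq order places within 5 positions of the pair or between its members, 7 were measured and 5 were past the floor, with differences from -0.12 to 0.31. On the keratin side KRT78 differed by 0.14, KRT79 by 0.23, KRT4 by 0.08 and KRT3 by 0.05, with KRT78 and KRT3 under the floor. On the other side the translation initiation factor EIF4B read 10.69 and 10.57 (difference -0.12), the tensin TNS2 5.97 and 6.28 (difference 0.31), and SPRYD3 7.28 and 7.52 (difference 0.23). The next gene, IGFBP6, which encodes a binding protein for insulin-like growth factors, lies outside this set and was named after its value was seen. It read 6.03 and 7.18 by its 1 probe set, a difference of 1.14 or 2.21-fold, number 32 of the genes past the floor.

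**Figure D4:**
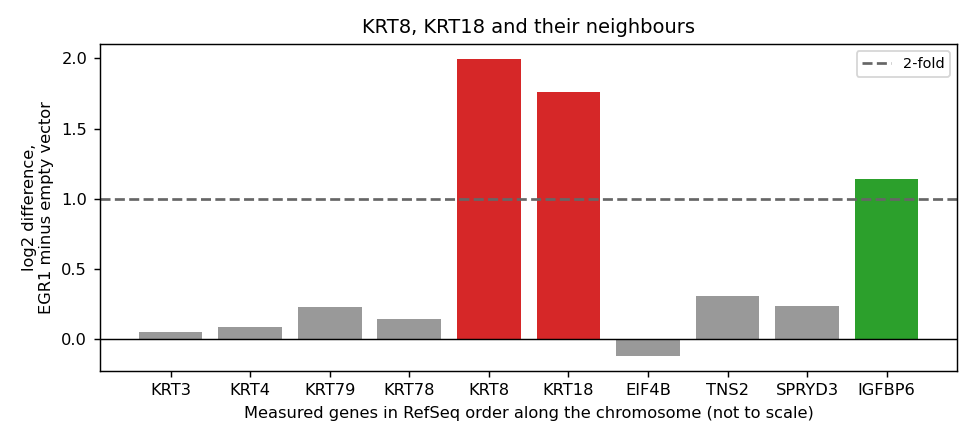
log2 difference, EGR1 minus empty vector (y axis), of KRT8 and KRT18 and of the measured genes around them in RefSeq order (x axis, not to scale), with 2-fold dashed. KRT8, KRT18 and, beyond 3 measured genes, IGFBP6 (1.14) exceed 2-fold, and the other bars lie between -0.12 and 0.31.

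With 2 arrays, likeness to the pair can be given only as the distance between differences. Nearest to KRT18 were SLC22A4 (difference 1.80, distance 0.04), TGM2 (1.72, distance 0.04), SBSN (1.87, distance 0.10), ID2 (1.62, distance 0.14) and FGFR3 (1.94, distance 0.17). TGM2 encodes transglutaminase 2, a protein-crosslinking enzyme that can use keratins as substrates, and read 6.62 in the control array and 8.34 with EGR1. Nearest to KRT8 were HEY1 (2.05, distance 0.05), TMT1B (1.94, distance 0.05), FGFR3 (distance 0.06), SERPINA1 (2.12, distance 0.12) and SBSN (distance 0.13). FGFR3 read 5.04 and TMT1B 4.95 in the empty-vector array, both under the floor.

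The state of the cells was read from marker lists. Of 16 epithelial identity genes 6 were past the floor and of 12 mesenchymal identity genes 10, with medians over all members of 0.04 and 0.06. Past the floor the medians were 0.11 and 0.06. The mesenchymal median was -0.08 when the probe sets of a gene were averaged. In the epithelial list OVOL1 differed by 0.57 (its 3 probe sets ran from -0.38 to 0.57), PRSS8 by 0.18, CLDN4 by 0.13 and OCLN by 0.09. OVOL1 read 5.05 in the control array, under the floor, and passed it only through the EGR1 array. In the mesenchymal list SNAI1 read 6.26 and 6.92 (difference 0.66 or 1.58-fold), S100A4 differed by 0.36, AXL by -0.19 and SPARC by 0.17. SNAI1 was the 1 mesenchymal gene past the floor at 1.5-fold higher, and 0 epithelial genes were, against 0.941% of all genes past the floor. The probe sets of OCLN and AXL disagreed in sign. Lung alveolar and airway markers were past the floor in 5 of 7 genes, with a highest level of 6.46 in the control array and 6.57 in the EGR1 array. Markers of leukocytes (1 of 4 measured past the floor, highest levels 5.18 and 5.49), endothelium (3 of 4, both highest levels 6.21) and fibroblasts (1 of 7, highest levels 6.11 and 6.04) had none at 1.5-fold past the floor. RMA values have no zero, so a level near the floor shows neither presence nor absence.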

How the data were processed

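Gene expression was measured in 2 samples on 1 array each. The deposited table holds log2 levels per probe set, which the authors made with RMA, per the submitters' processing notes. Software and settings are not given in the sources used. No detection call or error comes with them, and the number of arrays limits the precision. Gene names came from the platform annotation, updated by Entrez ID from a RefSeq gene table (GRCh38.p14), and 44988 probe sets had 1 symbol. Differences, counts at 2-fold and 1.5-fold, list medians and motif matches were computed in Python 3.11.15 with pandas 2.3.3 and numpy 2.4.6, with no further normalization. With 1 array per group no test was made. The 2-fold call by brightest probe set was tried on simulated data in which all probe sets of a changed gene shifted alike with little noise. Recovery was nearly fixed by that setting, so it does not check the differences reported here. The named genes were the 7 listed, 5 genes on each side of KRT8 and KRT18, and the 5 nearest in difference to each of them. Pseudogenes of KRT8, KRT18 and KRT19 were included. From the lists, up to 4 genes past the floor that differed most in either direction were named. Of the 15 lists, those of leukocyte, endothelial, fibroblast and lung markers had no gene named. EGR1 was added as the transfected gene, and IGFBP6, CDKN1C, DDIT3, NR4A1 and TRIB1 were named after their values were seen. The genes and lists were chosen with earlier results of these data known. Alternatives were other summaries, probe-set types, normalizations (lowess with statsmodels 0.14.6, span 0.3), floors and fold thresholds.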

Additional observations from a re-analysis of the deposited data

How the results depend on the processing

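The differences of the 7 genes kept their sign under each alternative that could be computed, but several of these could not move a difference. The median over all probe sets was already 0, and a floor only decides whether a gene is kept. Averaging or leaving out probe sets cannot change a value that rests on 1 probe set. For KRT19, KRT7, KRT10 and KRT80 only quantile normalization and the lowess correction could act. KRT8 ran from 1.77, with the mean of all probe sets, to 2.05, after the lowess correction, KRT18 from 1.75 to 1.79, KRT7 from -0.58 to -0.55, KRT19 from 0.22 to 0.24, KRT10 from -0.11 to -0.06, KRT80 from 0.008 to 0.01 and VIM between -0.07 and -0.03. When _x_at and _s_at types were left out, 0 of the 7 genes were at 2-fold higher, because KRT8 and KRT18 have no other type, and with the floor at the 60th percentile KRT19, KRT7 and KRT80 gave no value. At a threshold of 1.5-fold 119 genes past the floor were higher and 29 lower, and 0 were at 2-fold lower with the mean of all probe sets or the floor at the 60th percentile. The median of other type II keratins was 0.052 with no floor. That of other type I keratins was -0.035 when probe sets were averaged, without _x_at and _s_at probe sets and with the floor at the 60th percentile, and that of leukocyte markers was -0.035 with no floor. List medians could not change when the median difference was set to 0, and these are counted here. Of 100 list medians under alternatives 8 changed sign, in 6 of 15 lists. Besides type I keratins and leukocyte markers these were the plakins and linkers (-0.02 with the floor at the 60th percentile), the mesenchymal genes (-0.08) and the lung markers (-0.002), both when averaged, and the endothelial markers (0.01 with no floor). No paired analysis was possible because each group holds 1 array.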

Other observations

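Many differences between the arrays recur to the last digit in unrelated probe sets, a feature looked for after the data were seen. The size of the KRT84 difference, 0.22 on the log2 scale with either sign, was shared to 5 decimals by 102 probe sets, KRT84 included. A size shared by at least 20 probe sets was found for 17 of the 41 other keratins (41.5%) and for 20.1% of all genes. These counts include a difference of 0. Identical values in both arrays were found for 4 of the 41 (9.76%), against 4.49% of all genes. The comparison is not matched for level, since 15 of the 41 keratins were past the floor, against 12652 of 18132 genes. Among the 16 probe sets of the 7 genes, that of KRT19 shared its size with others (19 probe sets in all), as did that of KRT80 (5) and the brighter of VIM (2), whereas those of KRT8, KRT18, KRT7 and KRT10 did not. The reason for this recurrence was not tested.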
